A study of Mus musculus with 15 samples.

Results

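The mitochondrial fatty acid oxidation genes are a set of 34 genes that carry fatty acids from activation through the carnitine shuttle and the beta-oxidation enzymes to the electron transfer flavoprotein. They were chosen by name, as the rows of the deposited gene table whose symbol is on that list, and all 34 were found among its 54532 genes. Each of them had fragments in all 15 libraries and passed the filter on low values, at least 1 FPKM in at least 5 libraries, which kept 12585 genes. FPKM is the number of sequenced fragments per kilobase of gene, here also divided by a library factor. Means are given ± SD over the 5 libraries of a group (n = 5) throughout.

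Poly-A RNA of the left ventricle was sequenced from female C57BL/6JRj mice of 12 to 18 weeks and 20 to 22 g, 8 days after surgery, in 3 groups of 5 libraries. The Sham group had surgery without infarction and received vehicle, 20% Captisol, a cyclodextrin. In the MI group the left descending coronary artery was tied off permanently, and the mice received the same vehicle. In the GSK group the mice were given GSK-343 in 20% Captisol intraperitoneally once a day (20 mg/kg). The first dose was at 6 h after the operation and the last on day 7. The sample labels list the same vehicle and injection times for all 3 groups. GSK-343 is an inhibitor of EZH2, the enzyme that places the repressive methyl mark on histone H3 lysine 27. These hearts are treated here as infarcted because the protocol says so, while the sample names give only the compound. Whole left ventricle was used, so an MI or GSK library can hold scar, border zone and surviving muscle together. Sham libraries 1 and 2 were each made from RNA of 2 mice, and the names of GSK replicates 1 and 2 carry another letter than all other names. The animal number in the name of MI replicate 3 also occurs in that of Sham replicate 2, and the sources used here do not say whether it is the same animal.

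Libraries held 21.5 to 26.8 M fragments assigned to genes. The member with fewest fragments still had 35 to 190 of them in a library, so all 34 were measurable in every library. In GENCODE vM21, 14 of the 34 share exon bases with another gene, 5 of them on the same strand, and how such fragments were counted is not given in the sources used here. Cardiomyocyte markers were high in all groups (Myh6, the cardiac myosin heavy chain, lay at 2719 to 3711 FPKM in Sham and 1020 to 3123 in MI), and the skeletal muscle myosin Myh4 was listed at 0 in all 15 libraries. Mitochondrially encoded transcripts took 41.2% to 42.2% of summed FPKM in Sham, 23.2% to 40.6% in MI and 31.8% to 48.7% in GSK. MI replicate 4 and GSK replicates 3 and 4 had the highest such shares of their groups (40.6%, 46.4% and 48.7%) and stand apart from the other infarcted hearts in this respect.

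Fatty acid oxidation is the main source of ATP in the adult heart. A long-chain fatty acid is joined to coenzyme A by an acyl-CoA synthetase, passed to carnitine and carried across the inner mitochondrial membrane, and then shortened by repeated rounds of dehydrogenation, hydration, a further dehydrogenation and thiolysis. Electrons of the first step reach the respiratory chain through the electron transfer flavoprotein, and malonyl-CoA holds back the entry step, the carnitine palmitoyltransferase of the outer membrane.

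Infarcted hearts held less mRNA of most steps of this pathway. Of the 34 genes, 27 were lower in MI than in Sham, 1 was higher (Acsl5) and 6 did not pass the test (Acsl3, Acsl4, Cpt1a, Acadl, Acad9 and Acot13), at a Benjamini-Hochberg adjusted p under 0.05 in a limma fit across all tested genes. Of all 12585 tested genes, 21.9% were lower and 21.9% higher in this comparison. The median log2 difference of the 34 was -0.84 against -0.02 over all tested genes, on the log2(FPKM + 1) scale used throughout. Among the 34, 22 had all 5 MI libraries below all 5 Sham libraries and 1 had them all above, where the same held for 14.2% and 15.7% of all tested genes. With the mitochondrial genome's transcripts dropped and totals equalised, 25 of the 34 were lower and 1 higher. Of the 12561 genes then tested, 1897 were lower (15.1%) and 3314 higher. The share of higher genes among all calls went from 50% to 63.6%. In bulk tissue, fewer cardiomyocytes and less of these mRNAs per cardiomyocyte cannot be told apart.

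Summed over the 34 genes, FPKM was 4342, 4768, 4167, 4630 and 5022 in the Sham libraries, 2900, 1567, 2187, 2691 and 3360 in the MI libraries and 2489, 3724, 3378, 3307 and 2395 in the GSK libraries, replicates 1 to 5 in order. All 10 infarcted hearts lay below every Sham library. MI replicate 2 was lowest and GSK replicate 2 the highest of the infarcted hearts. The means were 55.4% of Sham in MI and 66.7% in GSK, and the 34 genes took 1.38% ± 0.0692 of all fragments in Sham, 0.862% ± 0.205 in MI and 1.00% ± 0.152 in GSK (means ± SD, n = 5 each).

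**Figure D1:**
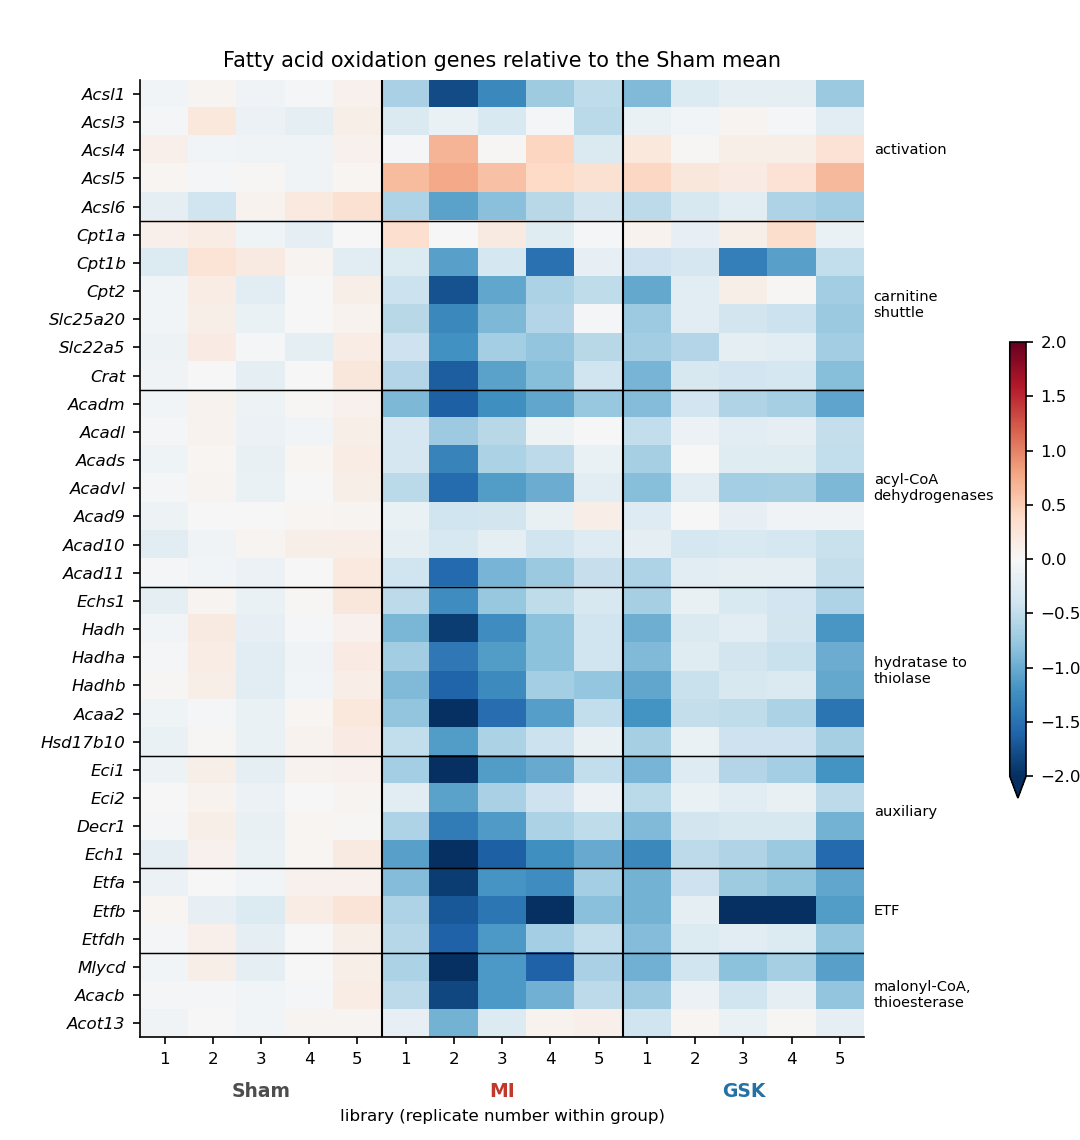
Heat map of the 34 genes (rows, grouped by step) in the 15 libraries (columns, by group and replicate); colour is log2(FPKM + 1) minus the mean of the Sham libraries, and differences under -2 share the darkest blue. Most rows are blue in MI and paler in GSK, Acsl5 is red in every MI and GSK library, and MI replicate 2 is the darkest column, with a median of -1.41 over the 34 genes.

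Activation was the step whose members moved in different directions. Acsl1, the main long-chain acyl-CoA synthetase of heart, fell in MI, whereas Acsl5, a synthetase prominent in intestine and liver, rose. Acsl6 was also lower, and Acsl3 and Acsl4 did not pass the test. Together the 5 synthetases summed to 108 ± 4.85 FPKM in Sham, 63.3 ± 15.4 in MI (58.7% of Sham) and 84.1 ± 15.3 in GSK (77.99%), nearly all of it Acsl1 in Sham.

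Acsl1 (mm10 chr8:46471037-46536051, + strand) had FPKM of 93.2, 99.7, 92.1, 95.3 and 102 in the Sham libraries, 61.3, 27.2, 38.9, 58.3 and 67.4 in the MI libraries and 51.9, 79.7, 85.3, 84.9 and 57.5 in the GSK libraries. Every infarcted heart was below every Sham library, MI replicate 2 was lowest, and GSK replicates 2, 3 and 4 lay above all MI libraries. The MI mean was 0.524 of the Sham mean, a log2 difference of -0.99 ± 0.21 (SE) with limma adjusted p = 0.00192. GSK differed from MI by 0.54 (95% confidence interval 0.084 to 1.00, limma adjusted p = 0.178) and from Sham by -0.45 (adjusted p = 0.151), and neither passed.

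Acsl5 (chr19:55251938-55297720, + strand) had FPKM of 4.26, 4.01, 4.21, 3.85 and 4.24 in the Sham libraries, 6.88, 7.61, 6.67, 5.77 and 5.29 in the MI libraries and 5.78, 4.98, 4.70, 5.25 and 7.000 in the GSK libraries. All 10 infarcted hearts were above all 5 Sham libraries. The Sham libraries were close to each other, and 2 of them mix RNA of 2 mice each. Acsl5 was 1.57 times Sham in MI, a log2 difference of 0.53 ± 0.10 (SE) with limma adjusted p = 0.000604, and 1.35 times Sham in GSK (adjusted p = 0.0253). It shares 404 of its 4864 exon bases with Zdhhc6 on the other strand, which lay at 2.85 ± 0.125 FPKM in Sham, 3.03 ± 0.263 in MI and 3.13 ± 0.146 in GSK; the strand setting of the counting is not given in the sources used here. All 10 macrophage and leukocyte markers were higher in MI too, and their part in the Acsl5 rise was not tested.

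The other synthetases were low. Acsl4, which prefers arachidonic acid, measured 3.26 ± 0.263 FPKM in Sham, 3.90 ± 1.36 in MI and 3.73 ± 0.329 in GSK (mean ± SD, n = 5), and its MI libraries spread from 2.46 to 5.82, around the Sham range of 3.06 to 3.58. Acsl3, a synthetase of the endoplasmic reticulum and lipid droplets, measured 2.20 ± 0.381 FPKM in Sham, 1.69 ± 0.356 in MI and 2.04 ± 0.218 in GSK, with limma adjusted p = 0.0571 for MI against Sham. Acsl6, best known from brain and able to activate docosahexaenoic acid, measured 1.71 ± 0.515 FPKM in Sham, 0.681 ± 0.309 in MI and 0.934 ± 0.272 in GSK and fell in MI by 0.69 on the log2 scale (limma adjusted p = 0.00239), although its lowest Sham library (1.03) lay under the highest MI library (1.08).

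Because FPKM is per gene length, the 5 synthetases can be set against each other. Acsl1 made up 89.2%, 90.2%, 89.3%, 89.9% and 89.1% of their summed FPKM in Sham, 83.2%, 63.5%, 76.3%, 81.2% and 87.0% in MI and 80.7%, 87.4%, 87.7%, 87.9% and 80.9% in GSK. No infarcted heart reached the Sham range. The mean share was 11.3 points lower in MI and 4.63 points lower in GSK than in Sham, each with an exact two-sided permutation p = 0.00794, the smallest that 5 against 5 libraries allow, and 0.0238 after adjustment over the 6 share tests. Counted in recovered fragments, with no division by length, the differences were smaller (-6.42 points in MI and -2.35 in GSK), at the same adjusted p. GSK was 6.65 points above MI, which did not pass (exact permutation p = 0.167, adjusted 0.2); it was 4.07 points above in recovered fragments and 2.97 points above without MI replicate 2. With any of Sham replicates 2 to 5 left out, both differences from Sham missed the threshold (exact permutation adjusted p of 0.0595 to 0.0833). The differences themselves then stayed at -11.4 to -11.1 points in MI and -4.74 to -4.47 in GSK. Both calls were kept without Sham replicate 1 (exact permutation adjusted p = 0.0476). They were also kept without any single MI or GSK library (exact permutation adjusted p = 0.0238). The adjustment also covers the Cpt1a tests, and why the calls were lost was not tested. Acsl5 went from 3.82% ± 0.237 of the family in Sham to 11.02% ± 4.45 in MI and 6.91% ± 2.32 in GSK as a description, and MI replicate 2 held the most (17.8%).

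In the carnitine shuttle 5 of 6 genes were lower in MI and Cpt1a was not called. The step summed to 268 ± 23.1 FPKM in Sham, 159.5 ± 44.9 in MI (59.6% of Sham) and 199.9 ± 43.3 in GSK (74.7%). Slc22a5 (OCTN2), which brings carnitine into the cell, and Crat, the mitochondrial carnitine acetyltransferase that buffers short acyl groups, had the lowest p of the step. Both were at about the same fraction of Sham in MI, 0.574 and 0.549.

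Slc22a5 (chr11:53864542-53891660, - strand) had FPKM of 10.2, 12.4, 10.6, 9.52 and 12.2 in the Sham libraries, 7.91, 4.15, 6.41, 5.92 and 7.13 in the MI libraries and 6.33, 6.94, 9.44, 9.22 and 6.35 in the GSK libraries. The MI libraries and the GSK libraries all lay under the lowest Sham library, 9.52, though GSK replicate 3 came close to it. It fell in MI by 0.73 on the log2 scale, with limma adjusted p = 0.00103, and in GSK by 0.48 relative to Sham (adjusted p = 0.0335).

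Crat (chr2:30400471-30415813, - strand) had FPKM of 104, 110.4, 97.00, 110.3 and 128 in the Sham libraries, 72.8, 34.4, 51.8, 60.1 and 82.9 in the MI libraries and 56.9, 87.8, 83.9, 85.4 and 60.5 in the GSK libraries. No infarcted heart overlapped the Sham libraries, and GSK replicates 1 and 5 sat among the MI values while the other GSK libraries lay above all MI values. MI differed from Sham by -0.91 ± 0.20 (SE) (limma adjusted p = 0.00213), and GSK from Sham by -0.57 (adjusted p = 0.0601), which was not called.

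Cpt2, which returns the acyl group from carnitine to coenzyme A inside the mitochondrion, fell from 92.2 ± 9.28 FPKM to 52.3 ± 16.99 in MI (limma adjusted p = 0.0107). In GSK it lay at 44.7, 78.5, 100.1, 93.7 and 56.6, so that replicates 2, 3 and 4 fell within or near the Sham range of 78.6 to 101 and replicates 1 and 5 did not. Slc25a20, the carnitine-acylcarnitine carrier of the inner membrane, fell from 37.1 ± 2.56 to 23.9 ± 8.18 (adjusted p = 0.00803), with MI replicate 5 (36.5) inside the Sham range, and measured 26.3 ± 4.42 in GSK.

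The entry enzyme exists as the liver form Cpt1a and the muscle form Cpt1b. Cpt1a FPKM was 15.3, 15.8, 13.2, 12.3 and 14.2 in the Sham libraries, 18.2, 14.02, 16.2, 11.8 and 13.7 in the MI libraries and 14.8, 12.4, 15.4, 18.3 and 12.8 in the GSK libraries. The 3 groups overlapped throughout, and MI differed from Sham by 0.049 (95% confidence interval -0.21 to 0.30, limma adjusted p = 0.766). Cpt1b FPKM was 2.46, 4.07, 3.74, 3.33 and 2.59 in the Sham libraries, 2.45, 0.964, 2.28, 0.496 and 2.74 in the MI libraries and 2.14, 2.33, 0.620, 0.967 and 1.98 in the GSK libraries. MI replicate 4 and GSK replicates 3 and 4, the libraries with the highest mitochondrial share of their groups, were the lowest of their groups in Cpt1b.

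Cpt1b fell in MI by 0.67 (limma adjusted p = 0.0452), a call that was lost under 13 of 25 other ways of processing, with adjusted p from 0.0235 to 0.187 over the 25; without those 3 libraries together the log2 difference was -0.47 (adjusted p = 0.0463). Levels of Cpt1b are uncertain, since 2744 of its 3372 exon bases (81.4%) are shared with Gm44502 on the same strand, which is listed at 0 in all 15 libraries. Cpt1a also has a length of 4300 bases in the deposited table against 7642 exon bases in GENCODE vM21. With these limits, Cpt1a made up 81.4% ± 3.72 of the summed FPKM of both forms in Sham, 89.7% ± 5.03 in MI and 89.9% ± 5.35 in GSK. MI exceeded Sham by 8.33 points and GSK exceeded it by 8.47 (exact permutation p = 0.0238 and adjusted 0.0357 for each), and GSK and MI differed by 0.132 points (p = 0.968 in the exact permutation test). These calls lay close to the threshold. Both were lost without any of Sham replicates 2 to 5 (exact permutation adjusted p of 0.0595 to 0.0833 for all these losses). That of MI was also lost without any of MI replicates 1 to 4, and that of GSK without any GSK replicate but replicate 2. Over all single libraries left out, the differences stayed at 6.77 to 9.93 points in MI and 6.90 to 9.87 in GSK. When Cpt1b fragments were set against its 628 unshared exon bases instead, the shares of Cpt1a were 45.4% ± 6.34, 63.6% ± 13.5 and 64.2% ± 14.8, with differences from Sham of 18.2 and 18.8 points, so which form leads in Sham depends on this choice.

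**Figure D2:**
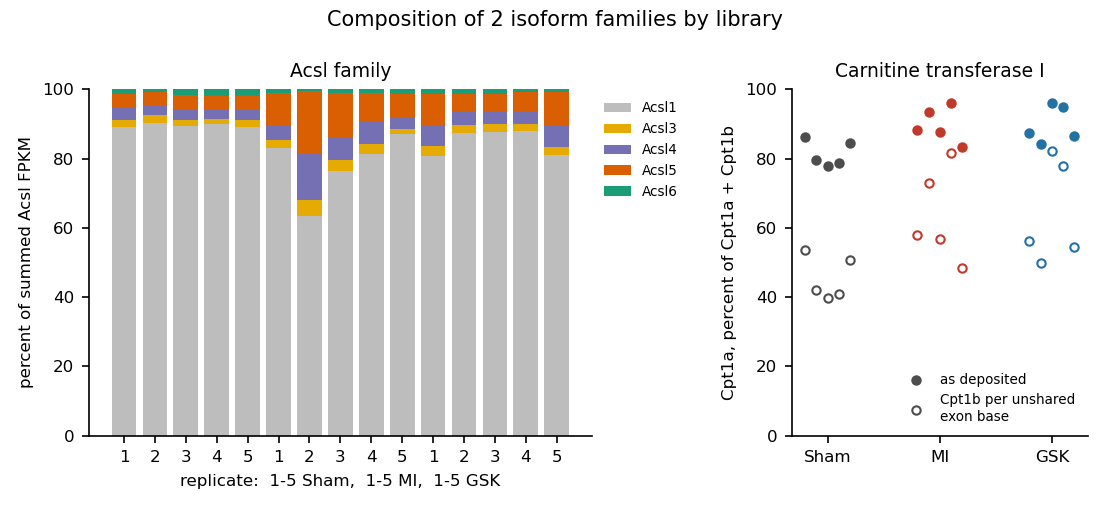
Left, bars stack the percent of summed synthetase FPKM taken by each of the 5 Acsl genes in every library; right, points give Cpt1a as a percent of Cpt1a plus Cpt1b per library, filled as deposited and open with Cpt1b set against its unshared exon bases. Acsl1 takes 89.1% to 90.2% in Sham and 63.5% to 87.0% in MI, and the 3 highest Cpt1a shares are MI replicate 4 and GSK replicates 3 and 4.

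The acyl-CoA dehydrogenases, flavoproteins that catalyse the first step of each round, were lower in MI for 5 of 7 genes. The step summed to 1189 ± 76.5 FPKM in Sham, 774 ± 178 in MI (65.1% of Sham) and 863 ± 128 in GSK (72.6%). Acadm, the medium-chain enzyme, fell with the lowest p of all 34 genes, whereas Acadl, the long-chain enzyme and the most abundant of the step, did not pass. The very-long-chain enzyme Acadvl, the short-chain enzyme Acads and the less studied Acad10 and Acad11 were lower, and Acad9, which also serves complex I assembly, was not called.

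Acadm (chr3:153922357-153944632, - strand) had FPKM of 309.7, 339.6, 299.7, 328 and 342 in the Sham libraries, 173, 103, 138, 157 and 191 in the MI libraries and 178, 248, 212, 205 and 155 in the GSK libraries. The lowest Sham library, 299.7, lay above the highest infarcted heart, GSK replicate 2. Acadm in MI was 0.470 of Sham, a log2 difference of -1.11 ± 0.16 (SE) with limma adjusted p = 0.000105, and GSK was 0.617 of Sham (-0.71 ± 0.16 (SE), adjusted p = 0.00835). Both calls held under all 25 other ways of processing. Between GSK and MI the difference was 0.40 (95% confidence interval 0.064 to 0.74, adjusted p = 0.177).

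Acad11 (chr9:104063377-104127725, + strand), which acts on very long chains, had FPKM of 13.5, 13.2, 12.6, 13.6 and 15.9 in the Sham libraries, 10.1, 3.99, 6.74, 7.84 and 9.66 in the MI libraries and 8.59, 11.8, 11.9, 11.8 and 9.54 in the GSK libraries. The GSK libraries stayed under the lowest Sham library, 12.6, while replicates 2, 3 and 4 were above every MI library. Acad11 fell in MI by 0.82 (limma adjusted p = 0.00176), and its GSK to MI difference of 0.48 had the lowest adjusted p of the 34 genes in that comparison, 0.155.

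Acadl measured 504 ± 34.8 FPKM in Sham, 403 ± 82.5 in MI and 412 ± 50.02 in GSK (mean ± SD, n = 5). Its MI libraries ran from 304.8 to 500.4 against a Sham range of 463 to 548, with MI replicates 4 and 5 inside it and the others below. The log2 difference of -0.34 (95% confidence interval -0.64 to -0.043) had a limma adjusted p of 0.0601. Acadvl measured 239.5 ± 15.4 FPKM in Sham, 136 ± 48.7 in MI and 154 ± 31.5 in GSK and fell in both groups against Sham (limma adjusted p = 0.00294 and 0.0366); 1151 of its 2686 exon bases lie opposite Dvl2, which was at 1.82 ± 0.0277 FPKM in Sham and 1.79 ± 0.333 in MI. Acads measured 101 ± 8.47 FPKM in Sham, 68.9 ± 19.7 in MI and 81.4 ± 14.8 in GSK and fell in MI (adjusted p = 0.0182), with 1 MI library, replicate 5, inside the Sham range. Acad9 measured 5.61 ± 0.281 FPKM in Sham, 4.87 ± 0.904 in MI and 5.13 ± 0.408 in GSK (adjusted p = 0.112 for MI against Sham). Acad10, at 1.38 ± 0.230 FPKM in Sham, 0.969 ± 0.121 in MI and 0.892 ± 0.131 in GSK, is the least abundant gene of the 34 in Sham; it was lower in MI (-0.27, adjusted p = 0.0186) and in GSK (-0.33, adjusted p = 0.0174), with overlapping libraries in both.

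Nuclear receptors of the PPAR and ERR families are known regulators of fatty acid oxidation genes through sites built on the core motif AGGTCA. RefSeq promoter windows (GRCm38.p6, 250 bases before to 50 after the gene start) were matched for 28 of the 34 genes. AGGTCA on either strand was found in 6 of 28 (21.4%; Acsl6, Cpt1a, Acadm, Acadvl, Echs1 and Acacb) and in 18.1% of 27025 genes. The longer TNAAGGTCA, which contains it, was found in Acsl6 only (3.57% against 1.43%), and the direct repeat of AGGTCA spaced by 1 base (DR1) in none of the 28 (0.0481% of all). The 250 upstream bases of Acadm (chr3:153944644-153944893) and of Acadvl (chr11:70015429-70015678), both on the minus strand and printed 5′ to 3′, are shown to place the match, which is in capitals and reads TGACCT in Acadm, the other strand of the motif.
Acadm: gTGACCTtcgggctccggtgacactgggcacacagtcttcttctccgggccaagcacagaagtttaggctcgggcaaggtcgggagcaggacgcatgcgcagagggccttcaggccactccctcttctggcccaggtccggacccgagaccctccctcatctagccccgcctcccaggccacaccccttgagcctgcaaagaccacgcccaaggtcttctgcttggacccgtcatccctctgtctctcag
Acadvl: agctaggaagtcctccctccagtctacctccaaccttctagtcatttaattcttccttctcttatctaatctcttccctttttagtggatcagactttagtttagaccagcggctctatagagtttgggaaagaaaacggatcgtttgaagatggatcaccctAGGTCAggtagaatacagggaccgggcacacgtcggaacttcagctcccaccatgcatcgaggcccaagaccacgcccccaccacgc
The match starts 249 bases before the gene start in Acadm and 87 bases before it in Acadvl. A match is a description of letters only, and any link to the differences between groups was not tested.

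All 6 enzymes of the hydration to thiolysis steps were lower in MI. They summed to 1202 ± 107 FPKM in Sham, 611 ± 193 in MI (50.8% of Sham) and 758 ± 186 in GSK (63.1%). The trifunctional protein, which handles long chains on the inner membrane and is built from Hadha and Hadhb, had the lowest p of the step in both its subunits. The matrix enzymes for shorter chains, the hydratase Echs1, the dehydrogenase Hadh and the thiolase Acaa2, were lower too, as was Hsd17b10, a dehydrogenase of branched-chain acyl groups that is also part of mitochondrial RNase P.

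Hadha (chr5:30118304-30155162, - strand) had FPKM of 162, 183, 144, 158 and 185 in the Sham libraries, 102, 61.03, 76.02, 93.5 and 125 in the MI libraries and 89.7, 140.4, 128, 121 and 82.4 in the GSK libraries. Hadhb (chr5:30155248-30184593, + strand) had 247, 265, 209, 235 and 268 in the Sham libraries, 132, 79.9, 101, 152 and 142 in the MI libraries and 118, 178, 195, 198 and 119 in the GSK libraries. For both subunits every infarcted heart lay below every Sham library, and the GSK libraries split into replicates 2, 3 and 4, high, and replicates 1 and 5, low. Hadha in MI was 0.549 of Sham (-0.89 ± 0.19 (SE), limma adjusted p = 0.00148) and Hadhb 0.496 (-1.04 ± 0.19 (SE), limma adjusted p = 0.000696). In GSK they were 0.675 and 0.661 of Sham (adjusted p = 0.0407 and 0.037).

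The genes of both subunits start back to back, and the 85 bases between them (chr5:30155163-30155247, GRCm38.p6, plus strand 5′ to 3′, Hadha to the left and Hadhb to the right) are shown as their shared start region. It holds no AGGTCA, so no letter is in capitals.
Hadha-Hadhb: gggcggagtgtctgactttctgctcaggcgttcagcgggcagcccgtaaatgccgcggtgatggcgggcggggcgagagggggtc
Of these bases 69.4% are G or C, with 9 CpG pairs.

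Acaa2 measured 549.8 ± 52.6 FPKM in Sham, 255 ± 104 in MI and 314 ± 89.99 in GSK (mean ± SD, n = 5), and its MI libraries ranged from 125 to 390 against 498 to 633 in Sham (limma adjusted p = 0.00228). Hadh measured 111 ± 10.2 FPKM in Sham, 56.2 ± 20.4 in MI and 74.95 ± 20.9 in GSK (adjusted p = 0.0028 for MI), with MI replicate 2 lowest at 29.1. Echs1 measured 47.9 ± 5.72 FPKM in Sham, 30.3 ± 6.99 in MI and 35.6 ± 5.43 in GSK (adjusted p = 0.00312), and Hsd17b10 82.2 ± 7.66 FPKM in Sham, 56.4 ± 13.3 in MI and 59.8 ± 9.46 in GSK (adjusted p = 0.00843). The difference of Hsd17b10 was the smallest of the step. Against Sham, GSK was lower for Hadha, Hadhb, Acaa2 and Hsd17b10 and not called for Echs1 and Hadh (adjusted p = 0.0704 and 0.0886).

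The auxiliary enzymes, which reshape double bonds of unsaturated chains, had the lowest sum relative to Sham of all steps in MI. All 4 were lower, and they summed to 942 ± 86.04 FPKM in Sham, 419 ± 125 in MI (44.5% of Sham) and 547 ± 142 in GSK (58.1%). Ech1, a dienoyl-CoA isomerase and the most abundant of the 34 genes in Sham, and Decr1, the dienoyl-CoA reductase, had the lowest p of the step.

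Ech1 (chr7:28825217-28832247, + strand) had FPKM of 492, 591, 508, 574 and 633 in the Sham libraries, 261, 126, 179, 238 and 276 in the MI libraries and 227, 387, 369, 333 and 188 in the GSK libraries. The highest infarcted heart, GSK replicate 2, was under the lowest Sham library, 492. Ech1 in MI was 0.386 of Sham (-1.42 ± 0.23 (SE), limma adjusted p = 0.00027) and in GSK 0.538 (-0.94 ± 0.23 (SE), adjusted p = 0.0135). Like those of Acadm, both calls held under all 25 other ways of processing.

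Decr1 (chr4:15917240-15945507, - strand) had FPKM of 98.2, 108, 89.7, 102 and 101 in the Sham libraries, 64.3, 37.2, 44.9, 63.9 and 69.5 in the MI libraries and 53.6, 77.1, 79.2, 79.8 and 51.4 in the GSK libraries. No infarcted heart reached the Sham range, and GSK replicates 2, 3 and 4 lay above all MI libraries. It fell in MI by 0.86 (limma adjusted p = 0.00129) and in GSK by 0.57 (adjusted p = 0.0376). Eci1, the main enoyl-CoA isomerase of mitochondria, measured 261 ± 23.2 FPKM in Sham, 132 ± 46.1 in MI and 160.5 ± 39.8 in GSK and fell in both (adjusted p = 0.00235 and 0.0453). Its length in the deposited table is 1091 bases against 2127 exon bases in GENCODE vM21. Its FPKM and its weight in the step sum depend on that length, and whether it matches the bases counted was not tested. Eci2, an isomerase of mitochondria and peroxisomes, measured 21.8 ± 1.19 FPKM in Sham, 15.6 ± 4.003 in MI and 17.5 ± 2.52 in GSK and was called in MI only (-0.50, adjusted p = 0.0145; in GSK -0.31, adjusted p = 0.152); its GSK and MI values were not called different (adjusted p = 0.486).

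The electron transfer flavoprotein takes electrons from the acyl-CoA dehydrogenases as a dimer of Etfa and Etfb and hands them to ubiquinone through Etfdh. All 3 genes were lower in MI, and they summed to 529 ± 35.9 FPKM in Sham, 247 ± 73.8 in MI (46.6% of Sham) and 310.1 ± 58.1 in GSK (58.6%).

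Etfa (chr9:55454508-55512243, - strand) had FPKM of 341, 370.2, 356, 392.3 and 395 in the Sham libraries, 203, 98.98, 163, 157 and 231 in the MI libraries and 192, 276, 226, 211 and 179.8 in the GSK libraries. Etfdh (chr3:79603788-79629500, - strand) had 87.7, 97.4, 79.98, 90.01 and 97.7 in the Sham libraries, 60.5, 28.6, 40.3, 55.9 and 63.8 in the MI libraries and 49.05, 74.3, 77.1, 74.3 and 51.9 in the GSK libraries. In both genes the infarcted hearts lay below all Sham libraries and MI replicate 2 was lowest. Etfa fell in MI by 1.17 (limma adjusted p = 0.000235) and in GSK by 0.78 (adjusted p = 0.0115), while Etfdh fell in MI by 0.90 (adjusted p = 0.0021) and was not called in GSK (-0.49, adjusted p = 0.0958).

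Etfb FPKM was 68.1, 59.5, 54.8, 73.7 and 80.1 in the Sham libraries, 43.1, 19.9, 23.8, 7.68 and 36.9 in the MI libraries and 34.2, 57.8, 8.63, 7.68 and 30.03 in the GSK libraries. MI replicate 4 and GSK replicates 3 and 4, the same libraries that were low in Cpt1b, held 7.68, 8.63 and 7.68, and all other infarcted hearts held 19.9 to 57.8. The fitted differences from Sham were -1.51 ± 0.50 (SE) in MI and -1.61 ± 0.50 (SE) in GSK (limma adjusted p = 0.0243 and 0.0388). Without those 3 libraries they were -1.15 and -0.76 (adjusted p = 0.00252 and 0.0581). Etfb shares 678 of its 1164 exon bases with same-strand genes, mostly Gm45233, which did not exceed 0.142 FPKM in any library.

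The genes on either side of the malonyl-CoA brake fell together. Acacb, the acetyl-CoA carboxylase that makes malonyl-CoA at the mitochondrion, and Mlycd, the decarboxylase that removes it, were lower in MI. Acot13, a thioesterase that splits long-chain acyl-CoA, was not called. With Acot13 as the largest part, the 3 genes summed to 348 ± 16.1 FPKM in Sham, 268 ± 69.8 in MI (76.8% of Sham) and 296 ± 39.8 in GSK (85%).

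Mlycd (chr8:119394878-119411102, + strand) had FPKM of 46.4, 52.9, 42.6, 48.5 and 52.6 in the Sham libraries, 30.8, 10.4, 21.4, 15.04 and 30.6 in the MI libraries and 24.4, 36.6, 27.04, 30.2 and 22.3 in the GSK libraries. The infarcted hearts all lay below the lowest Sham library, 42.6, with MI replicates 2 and 4 lowest. It fell by 1.23 in MI and by 0.78 in GSK (limma adjusted p = 0.000818 and 0.033). Acacb (chr5:114146535-114250761, + strand) had FPKM of 41.4, 41.5, 40.7, 41.5 and 46.95 in the Sham libraries, 29.1, 11.3, 18.5, 21.4 and 29.2 in the MI libraries and 25.2, 39.1, 31.9, 36.7 and 24.2 in the GSK libraries. GSK replicates 2 and 4 came closest to the Sham range, and no infarcted heart entered it. Acacb fell by 0.99 in MI (limma adjusted p = 0.00157); it stood 0.55 higher in GSK than in MI (95% confidence interval 0.10 to 0.99, adjusted p = 0.166), the largest such difference of the 34 genes and not a call. Acot13 measured 258 ± 10.9 FPKM in Sham, 224 ± 57.4 in MI and 237 ± 28.96 in GSK, with MI replicate 2 low at 134 and 2 of the other MI libraries above all Sham libraries.

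**Figure D3:**
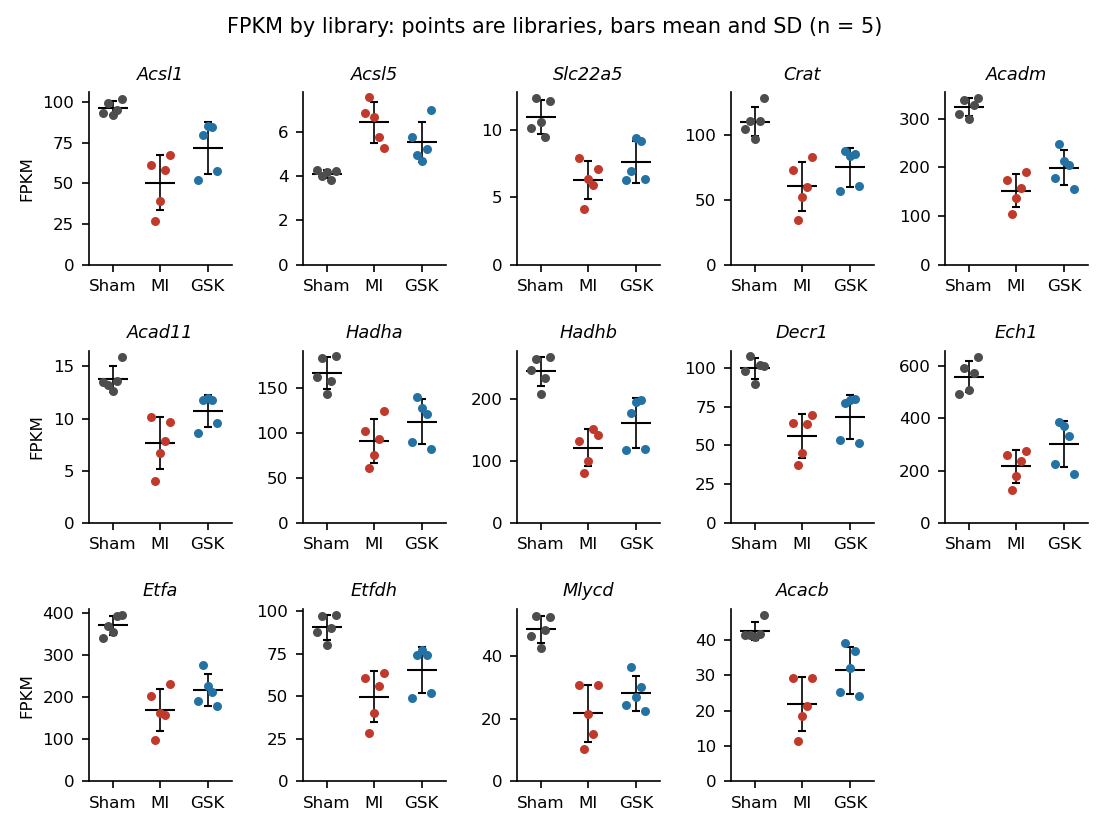
FPKM of the 14 genes described in full, one panel each, in the 5 Sham, 5 MI and 5 GSK libraries (points, replicates 1 to 5 from left to right), with mean and SD (n = 5); every axis starts at 0. In all panels but Acsl5 the Sham points lie above every MI and GSK point, and in Acsl5 they lie below.

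GSK against MI asks whether the inhibitor moved the genes in infarcted hearts. The fitted log2 difference was above 0 for 28 of the 34 and below 0 for 6 (Acsl4, Acsl5, Cpt1a, Cpt1b, Acad10 and Etfb), where 50.4% of all tested genes were above 0. The median log2 difference was 0.26 against 0.00 over all genes, but 0.12 without MI replicate 2, with a range of 0.12 to 0.38 over the 15 single libraries left out. None of the 34 was called in the limma fit, and 0 of all 12585 tested genes were (background share 0%). At an unadjusted p under 0.05 there were 4 of the 34 (Acsl1, Acadm, Acad11 and Acacb) and 2638 of all genes (21%). Other settings called some genes, none of them among the 34: 2 by voom on the recovered fragments, 3 with a pseudocount of 0.1, 187 lower and 204 higher without MI replicate 1, 133 lower and 154 higher without GSK replicate 5, 7 lower and 19 higher without MI replicate 4, and 1 lower and 6 higher without GSK replicate 1. No member had GSK libraries wholly above or below the MI libraries, which 1.15% and 0.858% of all genes had.

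The intervals show what 5 hearts a group can resolve. For Acsl1 the GSK to MI difference lay between 0.084 and 1.00 on the log2 scale (95% confidence), for Cpt2 between -0.012 and 1.05, and for Cpt1a between -0.26 and 0.25. Values in GSK were split in most genes: over the 34 genes the median difference from the Sham mean was -0.73, -0.23, -0.30, -0.34 and -0.72 in GSK replicates 1 to 5 and -0.53, -1.41, -0.99, -0.68 and -0.40 in MI replicates 1 to 5. GSK replicates 2, 3 and 4 were above all MI libraries by this measure, and replicates 1 and 5 were within their range. The MI libraries enter both this comparison and that of MI with Sham, so the signs of the 2 are not independent. Without MI replicate 4 and GSK replicates 3 and 4 the median GSK to MI difference over the 34 genes was 0.21, and again 0 were called.

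Against Sham, the GSK hearts had 15 of the 34 genes lower, 1 higher (Acsl5) and 18 not called, where 7.58% of all tested genes were lower and 10.8% higher. The median was -0.48 against -0.02 over all genes. By step, 1 of 5 synthetases, 1 of 6 shuttle genes, 3 of 7 dehydrogenases, 4 of 6 hydratase to thiolase genes, 3 of 4 auxiliary enzymes, 2 of 3 flavoprotein genes and 1 of 3 control genes were lower. All 5 GSK libraries lay below all 5 Sham libraries for 21 of the 34 genes and above for 1, against 7.79% and 10.6% of all genes. With the mitochondrial genome's transcripts dropped in the same way, 7 were lower and 1 higher. Of the 12561 genes then tested, 425 were lower (3.38%) and 1960 higher. The share of higher genes among all calls went from 58.7% to 82.2%.

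This count moved with the libraries included. It was 6, 5, 7, 4 and 3 without Sham replicates 1 to 5 in turn, 5 without GSK replicate 1, 9 without GSK replicate 4, 3 without GSK replicate 5 and 23 without MI replicate 2. With the 2 groups fitted alone it was 25, and without MI replicate 4 and GSK replicates 3 and 4 it was 9. The share of all tested genes called lower moved as well. It was 5.52%, 5.06%, 4.77%, 3.58% and 3.53% without Sham replicates 1 to 5 in turn. It was 3.89%, 5.39% and 3.29% without GSK replicates 1, 4 and 5, and 10.6% without MI replicate 2. With the 2 groups alone it was 13.5%, and without the 3 libraries together 8.67%. Of the 16 calls, 2 (Acadm and Ech1) held under all 25 other ways of processing. For MI against Sham the count among the 34 stayed between 23 and 29 lower, and 22 of 28 calls held in all 25. The share of all tested genes lower in that comparison ran from 6.59% to 23.9%.

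**Figure D4:**
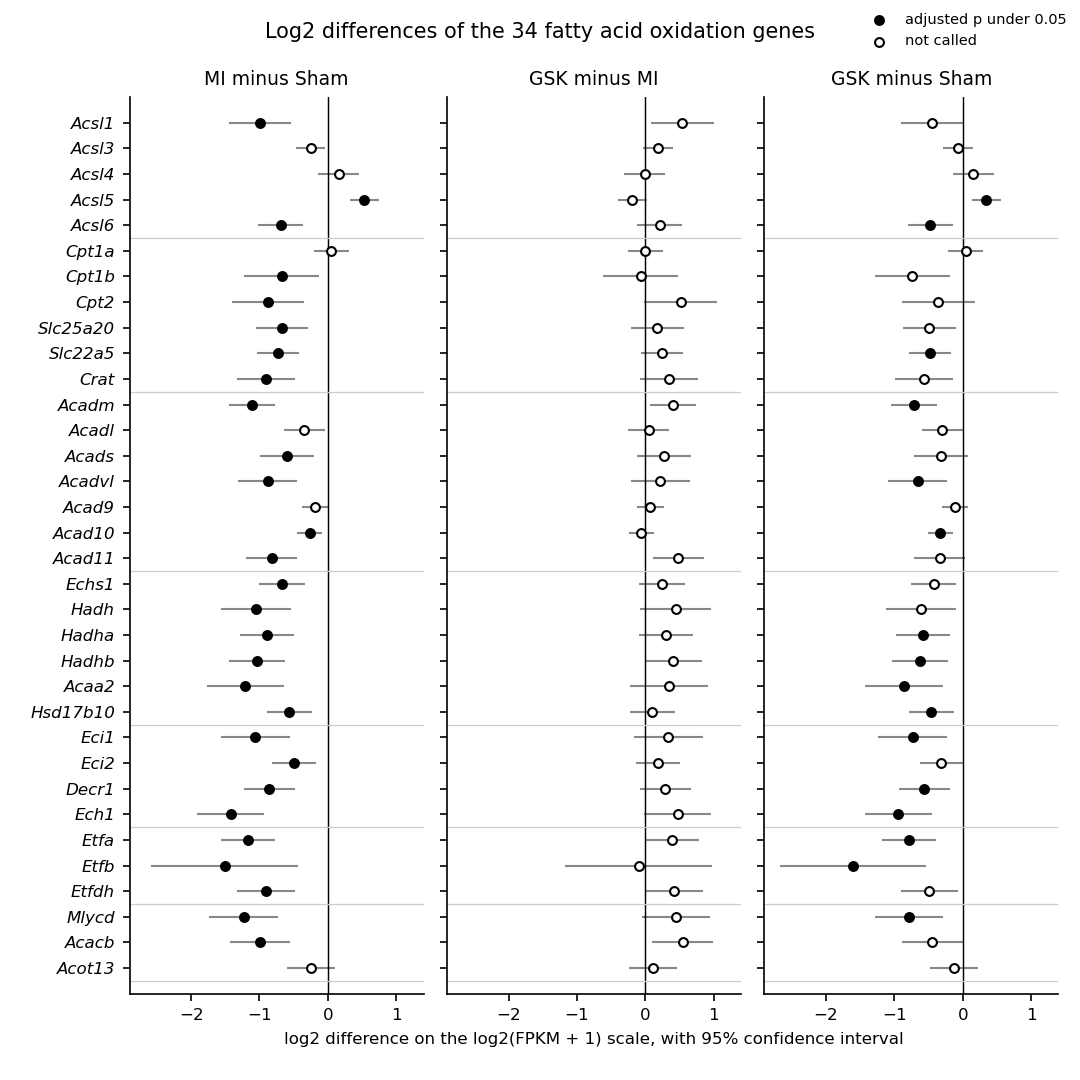
Log2 differences of the 34 genes in the 3 comparisons, on the log2(FPKM + 1) scale, with 95% confidence intervals from the limma fit; filled points passed an adjusted p of 0.05 and open points did not. In the left panel 27 filled points lie below 0, in the middle panel no point is filled, and in the right panel 15 filled points lie below 0.

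Cell type markers moved between the groups as well. Their counts stand beside 21.9% of all tested genes lower and 21.9% higher in MI against Sham. Of 14 cardiomyocyte markers 6 were lower in MI and 2 higher (Actn2 and Csrp3), with a median log2 difference of -0.33; their summed FPKM ranged from 21970 to 28670 in Sham, 15450 to 30520 in MI and 18550 to 26990 in GSK. All 10 macrophage and leukocyte markers were higher in MI (sums of 276 to 342, 587 to 1014 and 403 to 939), as were 7 of 10 fibroblast markers (997 to 1434, 1125 to 1990 and 1003 to 2041), while 1 of them, Gsn (gelsolin), the most abundant of that list in Sham, was lower (-1.57, limma adjusted p = 0.000317). Of 6 tested adipocyte markers 3 were lower in MI (sums of 5.05 to 70.8, 3.16 to 42.3 and 8.22 to 62.5), and Lep, the adipocyte hormone leptin, was at or near 0 throughout. Atrial markers varied widely within groups (sums of 82.1 to 1002, 6.35 to 559.9 and 116 to 431.5), and 0 of 4 tested were called in any comparison. Whether the libraries differ in atrial tissue was not tested. MI replicate 2, lowest in the 34 genes, was lowest in cardiomyocyte markers, and MI replicate 5, the highest MI library in the 34 genes, had the highest marker sum of all 15.

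The cardiomyocyte list did not move as one, with 9 of its 14 genes below 0 and 5 above 0 in MI. Relative to the Sham mean, the median of the 14 markers was -0.27, -0.82, -0.47, -0.38 and 0.04 in MI replicates 1 to 5, against -0.53, -1.41, -0.99, -0.68 and -0.40 for the 34 genes. When every library was shifted to the same mean of the cardiomyocyte markers, 23 of the 34 genes were lower in MI and 1 higher, against 6.59% of all genes lower, and the median of the 34 was -0.59 while that of all genes moved to 0.23 and 80% of all calls were higher. The same shift left 7 genes lower in GSK than in Sham and 0 higher, with 0.954% of all genes lower and 87.8% of all calls higher. The shift rests on that mixed list, and the part of cell composition in these differences was not tested.

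**Figure D5:**
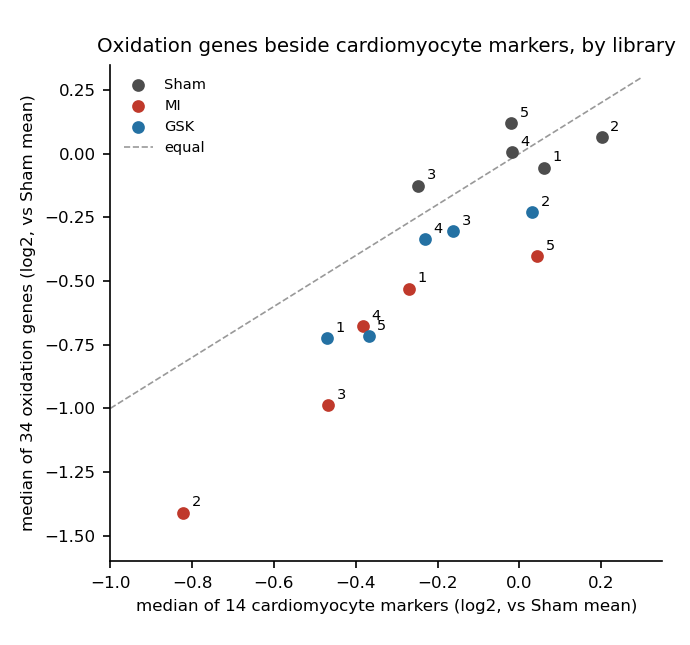
Each point is a library, with its replicate number; the x axis is the median log2 difference of the 14 cardiomyocyte markers from the Sham mean and the y axis that of the 34 oxidation genes, and the dashed line marks equal values. All MI and GSK points lie below the line, and MI replicate 2 is lowest on both axes.

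Neighbouring pathways were read from lists of related genes, whose counts stand beside 21.9% of all tested genes lower and 21.9% higher in MI against Sham. In peroxisomal fatty acid oxidation, which shortens very long and branched chains, 7 of 15 tested genes (19 listed) were lower in MI and 1 higher, with a median of -0.27. Phyh, the phytanoyl-CoA hydroxylase, fell from 280.4 ± 22.8 to 169 ± 38.3 FPKM (limma adjusted p = 0.00162), the bifunctional enzyme Ehhadh from 5.18 ± 1.47 to 2.78 ± 0.693 (adjusted p = 0.0113), and the peroxisomal transporter Abcd3 from 20.8 ± 0.918 to 13.2 ± 1.84 (adjusted p = 0.000498). The gene that was higher was Acox3, an oxidase of branched chains, at 2.49 ± 0.122 in Sham and 3.29 ± 0.145 in MI (adjusted p = 0.000475). In GSK against Sham 2 of the 15 were lower and 1 higher, near the 7.58% and 10.8% of all tested genes.

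Propionyl-CoA, the end product of odd-numbered chains, and the cobalamin cofactor of its breakdown are handled by 6 listed genes that were all lower in MI, with a median of -0.81. Mut, the methylmalonyl-CoA mutase, fell from 38.02 ± 4.94 to 17.9 ± 3.62 FPKM (-1.06 ± 0.13 (SE), limma adjusted p = 4.51e-05), and Mcee, the epimerase before it, from 58.2 ± 5.53 to 32.9 ± 9.32 (adjusted p = 0.00148). Pcca, a subunit of propionyl-CoA carboxylase, fell from 17.9 ± 2.002 to 9.67 ± 2.44 (adjusted p = 0.00102). In GSK 5 of the 6 were lower than in Sham. Among the 5 tested genes of carnitine synthesis and efflux 4 were lower in MI and 0 in GSK, among them Aldh9a1 and Tmlhe, enzymes of carnitine synthesis, and the mitochondrial carrier Slc25a29 (log2 differences -0.68, -0.38 and -0.65 in MI).

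AMP-activated kinase inhibits acetyl-CoA carboxylase, and its subunits differed in direction. The catalytic subunit Prkaa2 fell from 25.4 ± 0.939 to 15.5 ± 3.34 FPKM in MI (limma adjusted p = 0.000874) and Prkag1, a regulatory subunit, from 17.9 ± 1.74 to 10.9 ± 3.10 (adjusted p = 0.00905). Prkab2, a scaffold subunit, rose from 12.9 ± 1.45 to 24.1 ± 13.4 (adjusted p = 0.0431), with a wide spread in MI. Over the whole list of malonyl-CoA and kinase genes 4 of 10 were lower and 2 higher in MI, the latter near the 21.9% of all tested genes, with a median of -0.30. The list of flavin supply and flavoprotein maintenance also holds the complex I assembly factors Ecsit, Ndufaf1 and Tmem126b. It had 6 of 9 genes lower in MI and 0 in GSK against Sham. Etfbkmt, a methyltransferase that acts on Etfb, fell by 0.93 (limma adjusted p = 0.00157), Rfk, the riboflavin kinase, by 0.57 (adjusted p = 0.000508) and Ecsit, a complex I assembly factor, by 0.49 (adjusted p = 0.021). In GSK against MI no gene of these lists was called.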

How the data were processed

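The authors deposited FPKM values for 54532 genes in 15 libraries, with gene lengths and mm10 coordinates, as the file headers and values show. HISAT2, featureCounts of Subread, DESeq2 and R 3.5.1 were used by the submitters, per the submitters' processing notes, which give no role or order. The sources used here do not give the annotation release or the strand setting. Every FPKM value times its gene length was a whole multiple of a library-specific step (100% of values whole, to a tolerance of 0.01), and fragments per gene were recovered, 21.5 to 26.8 M per library.

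Values were transformed as log2(FPKM + 1), which understates changes of low genes, and 12585 genes that reached 1 FPKM in 5 or more libraries were kept. Group means over the 15 libraries were fitted by limma 3.58.1 under R 4.3.3 (eBayes with a mean trend), tested on simulated data, and a gene was called where its adjusted p (Benjamini-Hochberg, over all tested genes) was under 0.05. No adjusted p of a gene comes from another fit unless stated. Shares of isoforms were compared by exact permutation over 252 assignments, adjusted over 6 tests. Members described in full are, in each step, the 2 with the lowest p in MI against Sham, plus any that rose there or was called in GSK against MI. Context genes named are up to 3 called genes per list with the largest change, and Acox3 was added after its value was seen. The 34 members, the lists and the tests were chosen with earlier results of these data known. No source says whether all libraries are separate litters or cages, and the p-values take the libraries as independent. Each of the 2 mixed Sham libraries counts as 1 library. Promoter sequences are RefSeq's on GRCm38.p6.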

Additional observations from a re-analysis of the deposited data

Results flagged for a closer look

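In 135 groups of 5 libraries (members, step sums and shares), 3 held a library whose gap to the nearest other was a large part of the group's range; chance alone flags about 1 in 20 groups. Acadvl lay at 207.1 FPKM in GSK replicate 2, against 128.4 to 150.3 in the other GSK libraries. Acad9 lay at 5.137 FPKM in Sham replicate 1, one of the libraries that mix 2 animals, against 5.639 to 5.828 in the other Sham libraries. Acacb lay at 46.95 FPKM in Sham replicate 5, against 40.68 to 41.55 in the other Sham libraries.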

How the results depend on the processing

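Gene differences were recomputed under 25 alternatives, of which voom on recovered fragments and the shift to cardiomyocyte markers were chosen after seeing the data, as were the unshared exon bases of Cpt1b for the shares. The planned edgeR test was not run because the deposited unit is FPKM, and voom took its place. For MI against Sham the count of lower genes stayed within 1.5 times of 27, and 22 of 28 calls were kept in all 25. Cpt1b, Etfb, Acad10, Eci2, Acads and Acsl6 lost theirs in 1 or more, and no called gene changed sign.

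For GSK against Sham the count of 15 lower genes was 4 with no filter on low values, 25 with only the 2 groups compared in the fit, 7 with mitochondrially encoded genes left out, 9 with quantile normalization, 5 without the mixed Sham libraries, 9 without MI replicate 4 and GSK replicates 3 and 4, and 7 after the shift to cardiomyocyte markers. It ranged from 3 to 23 when each library was left out in turn. Of all tested genes, 7.58% were lower in the main fit and 3.29% to 10.6% with each library left out. In the order of the settings named before, the shares were 1.87%, 13.5%, 3.38%, 7.52%, 3.55%, 8.67% and 0.954%. The 1 higher gene was not called (0) with no filter, without the mixed Sham libraries, after the shift and without some single libraries (range 0 to 1). With no filter more genes were tested. With libraries left out fewer samples entered the fit, and the counts of lower genes then lay both below and above 15. What moved the counts was not tested.

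Replicate numbers did not pair the libraries: deviations of same-numbered libraries correlated between -0.411 and 0.486, over 0.1 in 2 of 15 pairs, and 2 of 15 libraries correlated best with their own number. With the number as a replicate block, 26 genes were lower and 1 higher in MI against Sham, and 4 lower and 0 higher in GSK against Sham. Of all tested genes, 19.6% and 4.25% were lower in these comparisons. The share differences under the replicate block were the same (8.33 and 8.47 points for Cpt1a, -11.3 and -4.63 for Acsl1, MI and GSK against Sham), but a sign-flip test of 5 pairs cannot go below 0.0625, and adjusted p was 0.125 to 0.188.

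Without the mixed Sham libraries these 4 share differences were 9.29, 9.42, -11.2 and -4.53 points, and none passed (exact permutation adjusted p of 0.143 to 0.161). Without MI replicate 4 and GSK replicates 3 and 4 the Cpt1a share differences were 6.77 and 4.66 points (adjusted p = 0.0952 and 0.107, exact permutation), the Acsl1 difference in GSK was -6.55 (adjusted p = 0.0536, exact permutation), and GSK minus MI for Cpt1a turned to -2.11. Leaving out single libraries gave 6.77 to 9.93 and 6.90 to 9.87 points for Cpt1a, -13.5 to -7.60 and -5.37 to -3.58 for Acsl1, -1.46 to 1.69 for Cpt1a in GSK minus MI and 2.97 to 8.85 for Acsl1 in GSK minus MI. All 4 calls were lost without any of Sham replicates 2 to 5, and those of Cpt1a also without most single infarcted libraries (exact permutation adjusted p of 0.0595 to 0.0833). In recovered fragments the Acsl1 differences were -6.42 and -2.35, and 4.07 in GSK minus MI.

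Sign changes occurred only in genes that were not called. In MI against Sham the shift to cardiomyocyte markers gave 0.067 for Acad9 and 0.0097 for Acot13, and single libraries gave -0.025 to 0.12 for Cpt1a. In GSK against MI, leaving out mitochondrially encoded genes gave 0.014 for Acsl4 and 0.032 for Cpt1a, quantile normalization 0.019 for Cpt1a, voom 0.0052 for Acsl4 and the marker shift -0.00080 for Acadl. Without MI replicate 4 and GSK replicates 3 and 4 it was 0.078 for Acsl4, 0.059 for Cpt1b and 0.39 for Etfb. Leaving out single libraries gave -0.13 to 0.12 for Acsl4, -0.079 to 0.072 for Cpt1a, -0.27 to 0.092 for Cpt1b, -0.046 to 0.13 for Acadl, -0.035 to 0.21 for Hsd17b10, -0.46 to 0.24 for Etfb and -0.061 to 0.20 for Acot13. In GSK against Sham, leaving out mitochondrially encoded genes gave 0.021 for Acsl3, 0.0022 for Acad9 and 0.0052 for Acot13, the marker shift 0.13, 0.092 and 0.074 for the same genes, and quantile normalization 0.10 for Acot13. Cpt1a was -0.081 there without the 3 libraries and -0.030 to 0.10 without single ones. The cause of these changes was not tested.

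Depth limits the least abundant genes, with as few as 35 fragments for Cpt1b in a library. In simulated data a 2-fold lower gene was recovered in 81.6% of 49 cases for MI against Sham, a 4-fold lower gene in 100% of 47. That simulation gave every gene the same fixed dispersion, drew the changed genes from all tested genes and left 12305 unchanged. It did not use the spread between the real libraries, so it does not give the power of these data or for low genes.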
